A study of Mus musculus with 16 samples.

Results

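Prostaglandin synthesis and receptor genes were examined in primary hippocampal cultures of mice in which the DNA methyltransferase isoform Dnmt3a1 was or was not knocked down. The set holds 9 of the 55385 genes in the deposited tables: the cyclooxygenases Ptgs1 and Ptgs2, the prostaglandin E synthases Ptges, Ptges2 and Ptges3, the prostaglandin D synthase Ptgds, and the prostaglandin E2 receptors Ptger1, Ptger3 and Ptger4. They were chosen by pathway membership after Ptgs2 was seen to fall with the knockdown, so the knockdown values of all 9 genes are given here as a description, without a test. All 9 genes were among the 17222 with enough counts to be tested. On GRCm38, Ptgs2 (ENSMUSG00000032487.8) lies at chr1:150100031-150108227 on the plus strand, Ptger4 (ENSMUSG00000039942.15) at chr15:5206661-5244187 on the minus strand, Ptges3 (ENSMUSG00000071072.12) at chr10:128058954-128077272 on the plus strand, Ptgds (ENSMUSG00000015090.13) at chr2:25466709-25470046 on the minus strand and Ptger1 (ENSMUSG00000019464.6) at chr8:83666678-83672753 on the plus strand, all protein-coding.

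The 16 RNA-seq libraries formed 4 groups of 4, each from independent neuronal preparations of newborn C57Bl/6N hippocampi. Every culture had been infected with a recombinant adeno-associated virus that carried a short hairpin RNA under a U6 promoter and a green fluorescent protein under a chicken β-actin promoter. Control-shRNA and Dnmt3a1-shRNA cultures were harvested at baseline or after 4 h of bicuculline, a blocker of GABA-A receptors that induces bursts of action potentials in such networks. The study's text names the hairpin as Dnmt3a1-shRNA2, a number that the sample labels leave out. Cultures were lysed whole, so fewer cells of a type and less RNA per cell cannot be told apart.

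Prostaglandins are lipid signals made from arachidonic acid. Phospholipases or monoacylglycerol lipase release the acid from membrane lipids, the cyclooxygenases convert it to the common intermediate prostaglandin H2, and terminal synthases turn that into prostaglandin E2, D2 and others, which act on G-protein-coupled receptors. In the brain Ptgs2 is known as an immediate early gene of excitatory neurons that synaptic activity induces, whereas Ptgs1 is mainly a gene of microglia, and Ptgds is abundant in the meninges, the choroid plexus and oligodendrocytes.

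The libraries held between 28912697 and 29586355 estimated counts each, so that 1 count was worth about 0.0344 CPM, counts scaled by library size. Dnmt3a itself, counted over all its isoforms, lay between 65.4 and 85.5 TPM (a level scaled by transcript length and library size) in the 8 Control-shRNA libraries and between 8.52 and 11.5 TPM in the 8 Dnmt3a1-shRNA libraries. All 9 neuronal markers of a fixed list were tested and their summed level ran from 4728 to 6206 TPM. The summed levels of the other lists were 125 to 362 TPM for astrocytes, 81.2 to 188 TPM for the oligodendrocyte lineage, 33.5 to 82.4 TPM for leptomeninges and fibroblasts, 3.20 to 63.4 TPM for choroid plexus, 9.47 to 21.8 TPM for microglia and 1.08 to 2.70 TPM for vessels. The oligodendrocyte gene Sox10 and the endothelial gene Cldn5 stayed below 3 counts in all libraries.

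The promoters of the 2 members that rose most after bicuculline, Ptgs2 and Ptger4, are shown because they share a response and differ in sequence. Both windows, from RefSeq on GRCm38.p6, run from 250 bases before the annotated start to 50 bases after it. Capitals mark matches to 4 motifs searched on both strands: the half-site of the cyclic AMP response element (CGTCA), an E-box (CACGTG), a C/EBP palindrome (TTGCGCAA) and an AP-1 site (TGANTCA). The Ptgs2 window lies at chr1:150099781-150100080 on the plus strand and the Ptger4 window at chr15:5244138-5244437 on the minus strand.
Ptgs2: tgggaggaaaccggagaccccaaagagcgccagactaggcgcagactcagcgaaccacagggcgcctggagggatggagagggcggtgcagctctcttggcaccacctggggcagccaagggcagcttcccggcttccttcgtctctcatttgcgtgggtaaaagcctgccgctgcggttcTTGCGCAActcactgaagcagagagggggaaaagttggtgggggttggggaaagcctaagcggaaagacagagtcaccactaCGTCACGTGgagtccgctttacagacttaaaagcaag
Ptger4: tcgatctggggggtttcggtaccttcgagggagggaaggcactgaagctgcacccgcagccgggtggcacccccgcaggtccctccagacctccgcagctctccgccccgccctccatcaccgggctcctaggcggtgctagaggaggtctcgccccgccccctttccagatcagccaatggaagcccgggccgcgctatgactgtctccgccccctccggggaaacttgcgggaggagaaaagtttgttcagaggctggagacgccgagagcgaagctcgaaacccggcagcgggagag
The Ptgs2 window held the CRE half-site at position 14 and an overlapping E-box at position 17 after the start, and the C/EBP palindrome at position -69. None of these letters occurred in the Ptger4 window. Of 32851 promoter windows of this length, 20.8% held the CRE half-site, 7.15% the E-box, 0.183% the C/EBP palindrome and 7.81% the AP-1 site. Among the 8 members with a promoter entry, Ptges3 also held a CRE half-site, at position 12, Ptges2 an E-box at position -77 and Ptgds an AP-1 site at position -35. A match is a description of letters only, and positions are counted from the annotated start. Whether transcription began there in these cultures was not tested. The Ptgs2 window contained 16 CpG dinucleotides and the Ptger4 window 25, against a median of 7 over all windows, while Ptges3 had 46 and Ptgds 2. Ptger1 is named only.

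The members spanned a wide range of levels on the TPM scale, which corrects for transcript length. At baseline in Control-shRNA cultures Ptges3, a cochaperone of Hsp90 that also has prostaglandin E synthase activity, was highest at 132 ± 6.26 TPM (SD, n = 4). Next came Ptges2, the membrane-associated synthase, with 50.5 ± 2.52 TPM, and Ptger3, the inhibitory EP3 receptor, with 10.6 ± 0.571 TPM. Ptgds, Ptgs2 and Ptges followed with 3.62 ± 1.09, 2.45 ± 0.996 and 2.22 ± 1.12 TPM, and the ranges of neighbours in this trio overlapped. Ptgs1, Ptger4 and Ptger1 lay lowest, at 0.621 ± 0.222, 0.520 ± 0.165 and 0.417 ± 0.0941 TPM, again with overlapping neighbours. In the same cultures after bicuculline Ptgs2 stood second at 59.7 ± 15.2 TPM, its range overlapping that of Ptges2 (46.3 ± 2.11 TPM). In Dnmt3a1-shRNA cultures Ptgs2 moved from eighth place at baseline (0.396 ± 0.172 TPM) to the third place after bicuculline (26.5 ± 8.50 TPM), and there it overlapped neither neighbour.

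**Figure D1:**
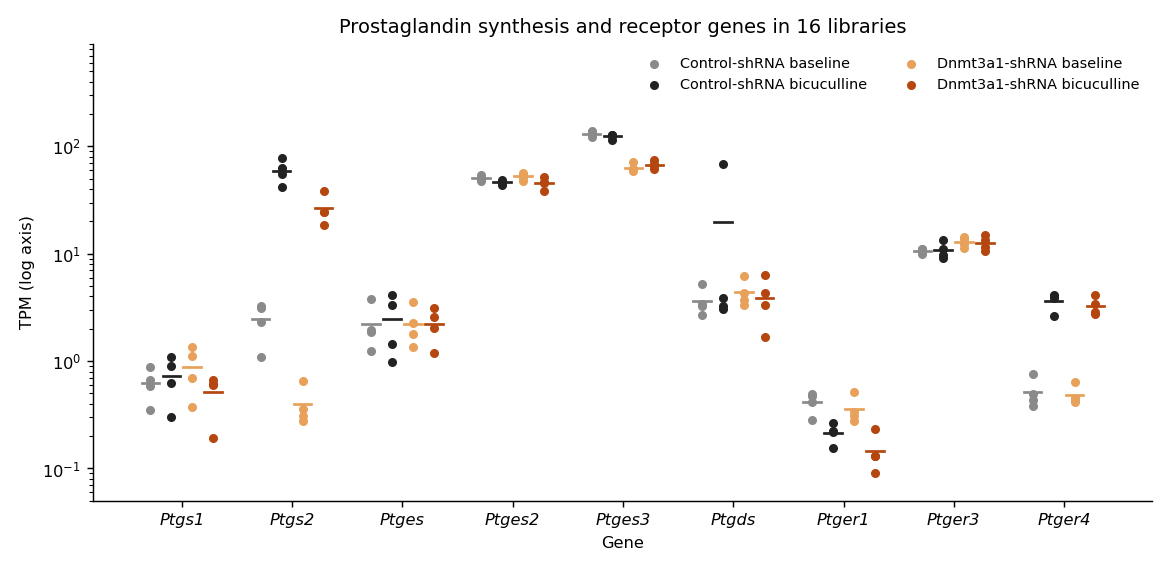
TPM on a log axis of the 9 genes in each of the 16 libraries, 1 point per library and 1 bar per group mean. Ptgs2 and Ptger4 separate by treatment, Ptges3 by shRNA, and a single Control-shRNA bicuculline library lifts the mean of Ptgds to 19.7 TPM.

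The first comparison asked how the genes respond to 4 h of bicuculline in Control-shRNA cultures. Here Ptgs2, Ptger4 and Ptgds were called higher and Ptger1 lower, where a call needs an adjusted p below 0.05 and a log2 fold change beyond 0.5 in edgeR's quasi-likelihood test over all 17222 genes. That is 3 of 9 members called higher against 10.8% of all tested genes, and 1 of 9 called lower against 11.1%. The median log2 fold change was 0.33 over the members and 0.006 over all genes. Control-shRNA libraries of both treatments serve this contrast and also the knockdown contrasts by which the members were chosen. The p-value of Ptgs2 here is thus not free of that choice, and nothing is read from the share called higher.

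Ptgs2, the inducible cyclooxygenase, gave 5.07, 2.22, 6.30 and 6.45 CPM in Control-shRNA baseline replicates 1 to 4 and 201, 99.4, 123 and 145 CPM with bicuculline. Every stimulated library was thus far above every unstimulated one. The fitted rise was 28.4-fold, a log2 fold change of 4.83 ± 0.33 (SE, edgeR adjusted p = 3.16e-09). It was called in all 26 alternative fits, with log2 values from 4.15 to 4.97.

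Ptger4 encodes EP4, a receptor for prostaglandin E2 that couples to stimulatory G proteins. It measured 0.691, 0.741, 1.06 and 0.584 CPM at baseline and 4.88, 6.96, 6.73 and 6.63 CPM with bicuculline. The groups did not overlap, and replicate 1 was the lowest of the stimulated libraries. The rise was 8.11-fold (log2 3.02 ± 0.18, edgeR adjusted p = 5.31e-10) and was called in all 26 alternatives. Ptger4 on chromosome 15 overlaps the opposite-strand gene Ttc33, and the strand setting of the libraries was not given in the sources used here. Ttc33 fell by 0.64 ± 0.09 on the log2 scale in the same contrast (edgeR adjusted p = 1.04e-05), opposite in direction to Ptger4.

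Ptger1 encodes EP1, a receptor that raises calcium in cells. Its levels were near the floor of the assay, with 20, 28.7, 32.9 and 32.1 estimated counts at baseline and 14.1, 18.7, 10.6 and 15.5 counts with bicuculline. The CPM ranges, 0.658 to 1.04 and 0.378 to 0.675, touched, since the stimulated replicate 2 exceeded the unstimulated replicate 1. Expression fell by 0.77 ± 0.28 on the log2 scale (edgeR adjusted p = 0.0344). This call was lost in 6 of the 16 fits that left out 1 library (adjusted p up to 0.105) and in 3 of 9 other alternatives, so it depended on the setting. The call went when any of Control-shRNA baseline replicates 2, 3 and 4 or Control-shRNA bicuculline replicates 1, 3 and 4 was left out. Its counts in the files are fractional, so some of its reads were shared out by the quantification and its level is uncertain.

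**Figure D2:**
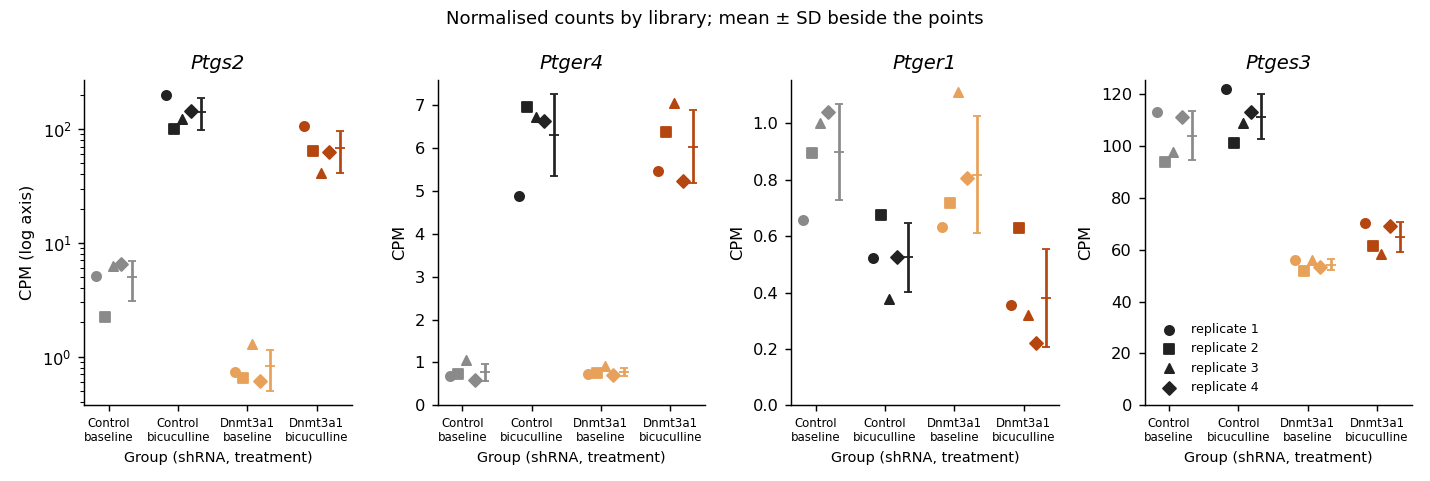
CPM of Ptgs2 (log axis), Ptger4, Ptger1 and Ptges3 (linear axes from 0) in the 4 groups, with a symbol for each replicate number and the mean ± SD beside the points. Stimulated libraries lie above all unstimulated ones for Ptgs2 and Ptger4, and Dnmt3a1-shRNA libraries lie below all Control-shRNA ones for Ptges3.

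Ptgds, lipocalin-type prostaglandin D synthase, was called through a single library. It gave 0.823, 0.988, 1.46 and 1.07 CPM at baseline and 1.19, 1.10, 22.4 and 1.19 CPM with bicuculline. Replicate 3 of the stimulated group was 10.5 times the highest of the other 15 libraries. The log2 fold change was 2.57 ± 0.80 (edgeR adjusted p = 0.0147) with that library and 0.09 without it (adjusted p = 0.846), and members called in the contrast then numbered 2. By voom with limma it was not called even with that library (1.21, adjusted p = 0.234). In that same library the leptomeningeal and fibroblast list summed to 81.5 TPM, against 33.5, 65.8 and 59.1 TPM in the other stimulated Control-shRNA libraries. The list ran from 38.0 to 70.4 TPM in Control-shRNA baseline, 39.8 to 79.7 TPM in Dnmt3a1-shRNA baseline and 44.3 to 82.4 TPM in Dnmt3a1-shRNA bicuculline libraries. Of its 8 genes 7 were tested, 2 were called higher in each bicuculline contrast, and none was below 3 counts throughout. The genes Itih2, Cldn11 and Slc22a6, picked after their values were seen, were highest in that library too: Itih2 had 3.60 CPM against at most 1.18 elsewhere, Cldn11 had 1.48 against at most 0.635, and Slc22a6 had 0.515 against at most 0.0654. Also highest there were Gm12671, Gm10359, Igfbp6, Gjb2, Car9 (1.72 CPM against at most 0.713) and Slc16a3 (5.05 against at most 2.96). Within the list, Lum and Igf2 were higher in stimulated Control-shRNA replicate 2, at 2.45 and 7.81 TPM against 2.13 and 6.71 TPM. The other genes of the list were highest in replicate 3 among the stimulated Control-shRNA libraries. The part of leptomeningeal cells or fibroblasts in the Ptgds value was not tested.

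**Figure D3:**
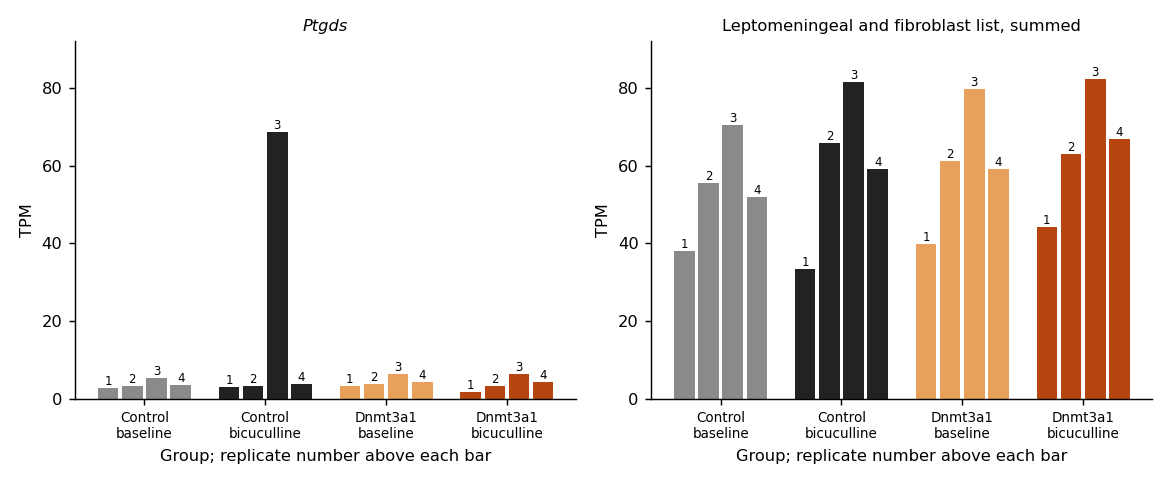
TPM of Ptgds (left) and summed TPM of the 8 leptomeningeal and fibroblast markers (right), 1 bar per library with its replicate number above. Ptgds reaches 68.7 TPM in Control-shRNA bicuculline replicate 3 and at most 6.31 TPM elsewhere, while the marker sum is highest in replicate 3 of all 4 groups.

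The other cyclooxygenase and the prostaglandin E synthases did not pass the test in Control-shRNA cultures. Ptgs1 had a log2 fold change of 0.74 ± 0.43 (edgeR adjusted p = 0.194). With the replicate number as a block it was 0.72 with an adjusted p of 0.0419, which meets the call. Ptges, the inducible microsomal synthase, had 0.33 ± 0.30, Ptges2 0.11 ± 0.06 and Ptges3 0.10 ± 0.08, with adjusted p-values of 0.4, 0.17 and 0.328. The sign of the last 2 depended on the scaling, since with library sizes alone the values were -0.05 and -0.06. Ptger3 had 0.28 ± 0.13 (adjusted p = 0.0989).

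In Dnmt3a1-shRNA cultures the same treatment raised Ptgs2 and Ptger4 and lowered Ptger1. That is 2 of 9 members called higher against 12.6% of all genes and 1 of 9 called lower against 13.2%. The libraries of this contrast also belong to the knockdown contrasts by which the genes were chosen. Nothing is read from the share called higher, since it includes Ptgs2.

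Ptgs2 started from 0.738, 0.654, 1.30 and 0.606 CPM and reached 106, 63.9, 41.2 and 62.2 CPM, again with no overlap. The fitted fold was 81.6 (log2 6.35 ± 0.40), given without a p because its baseline libraries hold the low values for which the gene was chosen. Ptger4 went from 0.738, 0.752, 0.921 and 0.707 CPM to 5.46, 6.37, 7.06 and 5.24 CPM, a 7.69-fold rise (log2 2.94 ± 0.18, edgeR adjusted p = 5.89e-10). Ptger1 fell from 0.633, 0.719, 1.11 and 0.808 CPM to 0.356, 0.629, 0.321 and 0.222 CPM, a log2 change of -1.09 ± 0.30 (adjusted p = 0.00594), and its groups did not overlap. The receptors called in Control-shRNA cultures were thus called in the same direction here.

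Ptges3 passed the p threshold but not the fold threshold, at 0.26 ± 0.08 (edgeR adjusted p = 0.011). Its 4 stimulated libraries, 58.5 to 70.4 CPM, lay above the unstimulated ones, 51.7 to 56.1 CPM. Ptgds, with 0.633 to 2.14 CPM in the 8 libraries and none standing apart, had -0.02 ± 0.86 (adjusted p = 0.99). Ptgs1, Ptges, Ptges2 and Ptger3 had log2 fold changes of 0.20, 0.26, -0.03 and 0.22, with adjusted p-values from 0.173 to 0.759.

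**Figure D4:**
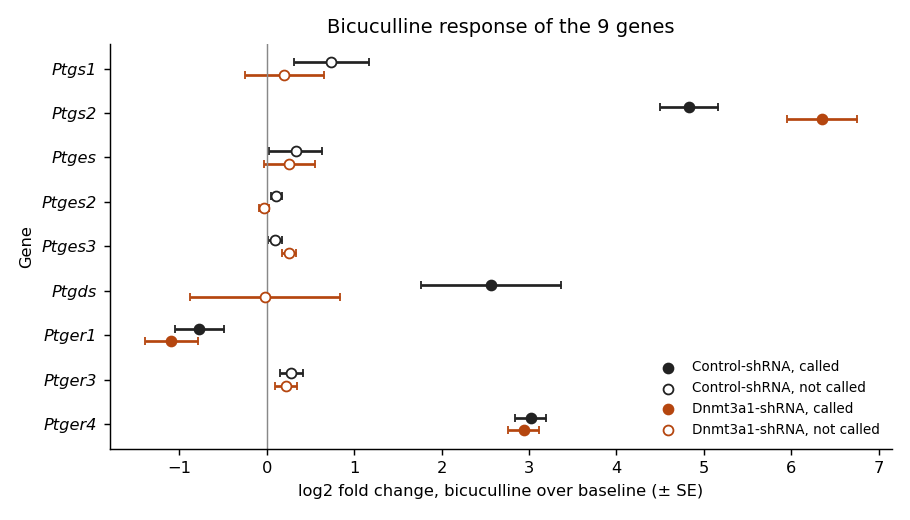
Log2 fold change of bicuculline over baseline with its SE for the 9 genes, in Control-shRNA (black) and Dnmt3a1-shRNA cultures (orange). Filled points are called. Ptgs2 and Ptger4 rise in both, and the filled Ptgds point at 2.57 falls to 0.09 without Control-shRNA bicuculline replicate 3.

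Separation of the groups was common among all genes. In Control-shRNA cultures 2 of 9 members did not overlap between treatments in CPM, against 39.7% of tested genes, and in Dnmt3a1-shRNA cultures 4 of 9, against 40.4%. The second share is close to that over all genes and the first lies below it. How calls split by direction depended on the scaling: 49.2% and 48.9% of the called genes were higher in the 2 bicuculline contrasts with TMM, and 31% and 32.8% with library sizes alone. In TPM with a pseudocount of 1 those shares were 28.6% and 30.6%. With library sizes alone the median gene shifted by -0.15 and -0.16 in log2, small beside the changes of Ptgs2 and Ptger4.

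The knockdown values that led to the choice of the genes are given next, with the call rule as a yardstick only, and nothing is read from the shares because Ptgs2 meets the rule through its choice. At baseline 2 of 9 members met it, Ptgs2 and Ptges3, both lower, where 4.07% of all tested genes were called lower. With bicuculline the same 2 met it, again lower, where the share over all genes was 3.90%. The median member value was 0.03 at baseline and -0.45 with bicuculline, beside 0.007 and -0.006 over all genes.

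For Ptgs2 the baseline values stood at 2.22 to 6.45 CPM in Control-shRNA and 0.606 to 1.30 CPM in Dnmt3a1-shRNA cultures, without overlap. The log2 difference was -2.59 ± 0.45. With bicuculline the levels were 99.4 to 201 CPM and 41.2 to 106 CPM, which overlapped because Dnmt3a1-shRNA replicate 1 passed Control-shRNA replicate 2. The log2 difference was -1.06 ± 0.27. Replicate 1 was the highest library in both stimulated groups. The difference between the bicuculline responses was 1.52 ± 0.54 in log2, given without a test because it contains the values that chose the gene.

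Ptges3 stood at 113, 93.9, 97.7 and 111 CPM in Control-shRNA baseline and at 56.1, 51.7, 55.9 and 53.3 CPM in Dnmt3a1-shRNA baseline libraries. The log2 difference was -0.94 ± 0.08 there and -0.78 ± 0.08 with bicuculline, and the groups overlapped in neither condition. Ptges3-ps, a processed pseudogene that can share its reads, differed in the same direction, by -1.15 ± 0.24 and -0.84 ± 0.24, so the split between the pair is uncertain.

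The remaining members did not meet the call rule in either knockdown contrast in the model used throughout. Ptger3 had 0.42 ± 0.13 at baseline and 0.36 ± 0.13 with bicuculline, and its baseline groups were apart, at 12.6 to 15.1 CPM against 16.3 to 19.2 CPM. Its value with bicuculline met the rule in 1 fit, that without Control-shRNA bicuculline replicate 1. Ptges2 had 0.14 ± 0.06 at baseline, also with groups apart. Ptgds had 0.30 ± 0.86 at baseline and -2.29 ± 0.79 with bicuculline, and the latter was 0.18 without Control-shRNA bicuculline replicate 3. That second value met the rule in 4 of the 9 other alternatives that gave an adjusted p, among them the replicate block (-1.69), and in 3 of the 16 fits without 1 library, namely Control-shRNA bicuculline replicate 1, 2 or 4. Ptger4 had 0.01 ± 0.21 and -0.06 ± 0.15, Ptger1 -0.13 ± 0.26 and -0.45 ± 0.32, Ptges 0.23 ± 0.30 and 0.16 ± 0.29, and Ptgs1 0.03 ± 0.45 and -0.51 ± 0.43. Groups without overlap numbered 4 of 9 at baseline and 1 of 9 with bicuculline, beside 19.9% and 20.9% of all tested genes.

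Other measures moved with the knockdown. The astrocyte list summed to 141 to 274 TPM in Control-shRNA and 166 to 362 TPM in Dnmt3a1-shRNA baseline libraries, and to 125 to 281 and 200 to 352 TPM with bicuculline, and was higher with the knockdown in all 8 same-numbered comparisons. Of its 6 genes, all tested, 1 (S100b) was called higher in each knockdown contrast. The labels do not say that same-numbered libraries are pairs, and the astrocyte ranges overlapped in both treatments. The neuronal list ran from 5642 to 6206 and 5302 to 6105 TPM at baseline. With bicuculline it ran from 5249 to 5738 and 4728 to 5475 TPM, lower with the knockdown for every replicate number. Of its 9 genes, all tested, 1 was called higher with the knockdown at baseline and 0 lower. Its genes moved both ways at baseline: Tubb3 ran from 1192 to 1275 and 1492 to 1692 TPM, and Gad1 from 557 to 640 and 312 to 456 TPM. With log2(TPM + 1) the median of all tested genes was itself -0.08 at baseline and -0.07 with bicuculline in the knockdown contrasts. Small differences in these sums are thus within the reach of the scale. Mitochondrial genes took 2.80% to 4.75% and 2.73% to 5.99% of counts at baseline, and 3.34% to 5.86% and 3.58% to 6.60% with bicuculline. The part of these shifts in the member values was not tested.

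In the interaction, the test of whether the bicuculline response differs between the shRNAs, edgeR called 0 of 17222 genes (0.00%). An unadjusted p below 0.05 was found for 852, close to the number that chance gives at that threshold. By voom with limma 0 were called, by DESeq2 18 and with the replicate block 3. In these fits an unadjusted p below 0.05 was found for 858, 775 and 1564 genes. The closeness to chance thus did not hold with the block. The 8 members other than Ptgs2 had interaction values from -2.59 ± 1.17 (Ptgds) to 0.16 ± 0.11 (Ptges3), with edgeR adjusted p-values of 0.984 to 1. Without Control-shRNA bicuculline replicate 3 the Ptgds value was -0.11. The SE of 0.26 for Ptger4 (-0.08) and of 0.41 for Ptger1 (-0.32) gives the precision of these comparisons.

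The 3′ UTRs of the members were read for the letters GAAAGGA, which lie within the target given in the study's methods for Dnmt3a1-shRNA2. The sites are shown because the 2 members that were lower in both knockdown contrasts hold them and so do 2 that were not. Each is 29 bases of the transcript strand on GRCm38 with the motif in capitals.
Ptgs2: tacctgaaactGAAAGGAaatcagcattc
Ptges3: ctggattttgaGAAAGGAaaataacttct
Ptges: ctccaaagacgGAAAGGAtgggctttgac
Ptges2: gtcattgcagaGAAAGGAgcctcccttga
They lie at chr1:150105950-150105978 (plus strand) for Ptgs2, chr10:128076103-128076131 (plus) for Ptges3, chr2:30891942-30891970 (minus) for Ptges and chr2:32405467-32405495 (plus) for Ptges2. The other 5 members held none. Of 14443 tested genes with an annotated 3′ UTR, 20.4% held the motif, and their UTRs were longer, at a median of 2686 bases against 1148.5. Their median log2 difference after knockdown was -0.058 at baseline and -0.057 with bicuculline, against 0.025 and 0.001 for genes without it. The letters were chosen with earlier results of these data known, so nothing is read from this difference. The part of such sites in the lower Ptgs2 and Ptges3 levels was not tested.

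The genes whose pattern over the 16 libraries was most like that of Ptgs2 were sought among 13879 others with a mean of at least 1 CPM. By Pearson's r of log2 CPM these were Alkal2 (0.989), Fbxo33 (0.989), Bdnf (0.988), Crem (0.987) and Atf6 (0.987). Bdnf, the neurotrophin gene, averaged 78.2 and 453 CPM in Control-shRNA and 46.8 and 352 CPM in Dnmt3a1-shRNA cultures without and with bicuculline. Alkal2, a ligand of the receptor ALK, averaged 11.5 and 71.7 CPM, then 5.90 and 38.2 CPM, in the same order. Of the 6 other members above that level, Ptger4 had an r of 0.920 and Ptges3 of 0.504, but by Spearman's rho the order turned, with 0.688 and 0.709. These values mostly reflect the 4 group means, which the points share. Over deviations from the group means, Crem, a cyclic AMP responsive transcription factor, had the highest value (0.920), Ptges3 had 0.742 and Ptger4 -0.153.

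Within groups the members did not all vary with the same replicates. In CPM the highest library was replicate 3 in all 4 groups for Ptgs1, Ptges and Ptgds, and replicate 1 in all 4 groups for Ptges3. Ptgs2 had no such replicate. The summed leptomeningeal, microglial and neuronal lists were also highest in replicate 3 of all 4 groups, and choroid plexus markers in replicate 4. Of the latter, Ttr gave 21.8, 0.649, 0.408 and 27.4 TPM in Control-shRNA baseline replicates 1 to 4. With bicuculline it gave 28.3, 1.16, 0.327 and 42.1 TPM. In Dnmt3a1-shRNA libraries Ttr gave 22.0, 0.983, 0.475 and 43.9 TPM at baseline and 18.1, 0.740, 0.780 and 58.8 TPM with bicuculline. Whether same-numbered libraries shared a preparation was not tested. For Ptgs1, the microglial list summed to 16.5 to 21.8 TPM in Control-shRNA baseline, 14.9 to 19.5 TPM in Control-shRNA bicuculline, 9.47 to 15.9 TPM in Dnmt3a1-shRNA baseline and 10.4 to 16 TPM in Dnmt3a1-shRNA bicuculline libraries. Of its 7 genes 3 were tested and 1, Csf1r, was called lower in each knockdown contrast. The part of these cells in the Ptgs1 levels was not tested.

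The rest of the pathway was taken from a list of 44 genes, of which 32 had enough counts to be tested. After bicuculline 5 were called higher and 2 lower in Control-shRNA cultures, and 6 higher and 3 lower in Dnmt3a1-shRNA cultures, by edgeR over all genes. Of all tested genes 10.8% and 11.1%, and then 12.6% and 13.2%, were called higher and lower, and nothing particular to the list is read from its counts. Among the enzymes that release or form arachidonic acid 11 of 12 were tested. Daglb, a diacylglycerol lipase that makes the endocannabinoid 2-arachidonoylglycerol, rose from 22.7 ± 1.19 to 39.9 ± 1.66 CPM (SD, n = 4; log2 0.81 ± 0.08, adjusted p = 1.69e-07) in Control-shRNA cultures. Its relative Dagla fell by 0.56 ± 0.08 on the log2 scale (adjusted p = 2.71e-05). Both did so in Dnmt3a1-shRNA cultures as well, by 0.76 and -0.71. Pla2g4b, a cytosolic phospholipase A2, was called in Dnmt3a1-shRNA cultures (1.77 ± 0.53, adjusted p = 0.0107) but not in Control-shRNA cultures (0.87 ± 0.50, adjusted p = 0.182). It overlaps the same-strand gene Gm28042, so its counts are uncertain, and the difference between the shRNAs was 0.90 ± 0.73 (adjusted p = 1). Daglb overlaps Rac1 on the opposite strand.

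Acsl4, an acyl-CoA synthetase that returns arachidonic acid to membrane lipids, rose by 0.75 ± 0.15 and 0.89 ± 0.15 in log2 in the 2 kinds of culture (edgeR adjusted p = 6.47e-04 and 1.04e-04). Lpcat3, the lysophospholipid acyltransferase that completes this return, went the other way, by -0.48 ± 0.09 (adjusted p = 0.000312, short of the fold threshold) and -0.55 ± 0.09 (adjusted p = 7.54e-05, called). Of the 5 other prostanoid synthases only Hpgds, the haematopoietic prostaglandin D synthase, was called. It averaged 0.422 ± 0.117 CPM at baseline and 1.07 ± 0.529 CPM with bicuculline in Control-shRNA cultures (log2 1.33 ± 0.33, adjusted p = 0.00354). In Dnmt3a1-shRNA cultures the averages were 0.333 ± 0.0863 and 2.20 ± 0.550 CPM (2.71 ± 0.33, adjusted p = 2.57e-06). Hpgds was near the floor of the assay at baseline, with 10 to 16 counts in Control-shRNA and 7 to 13 in Dnmt3a1-shRNA libraries, so its folds rest on few reads. Its interaction of 1.38 ± 0.48 did not pass the test (adjusted p = 0.845). The part of microglia, whose summed levels are given above for each group, in the Hpgds values was not tested.

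Slco2a1, the prostaglandin transporter, fell by 0.65 ± 0.22 and 0.62 ± 0.23 (edgeR adjusted p = 0.0237 and 0.0354), and the prostaglandin-metabolising Akr1c18 rose by 0.51 and 0.62. Hpgd, the main enzyme of prostaglandin breakdown, gave -0.58 and -0.43 and did not pass the test. In the lipoxygenase branch Aloxe3 rose from 5.29 ± 0.621 to 12.7 ± 1.82 CPM in Control-shRNA cultures (1.26 ± 0.13, adjusted p = 5.33e-07) and by 1.69 ± 0.13 in Dnmt3a1-shRNA cultures. Only 3 of the 8 other receptor genes were tested, and none of them was called. The receptors Ptger2, Ptgdr, Ptgdr2, Ptgir and Tbxa2r reached at most 10 counts in any library, too few for a comparison at this depth.

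After knockdown 0 of these 32 genes were called at baseline by edgeR, by voom or by DESeq2, and each tool gave 6 with an unadjusted p below 0.05. How many of all genes had such a p is not given here, so nothing is read from the 6. Over all 17222 genes 303 were called higher and 701 lower by edgeR in the knockdown contrast at baseline. With bicuculline 1 was called, Hpgds, which was higher by 1.05 ± 0.29 in log2 (edgeR adjusted p = 0.0167), where 344 of all genes were called higher and 671 lower. Its counts there were low, 17 to 49 in Control-shRNA and 42 to 75 in Dnmt3a1-shRNA libraries.

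**Figure D5:**
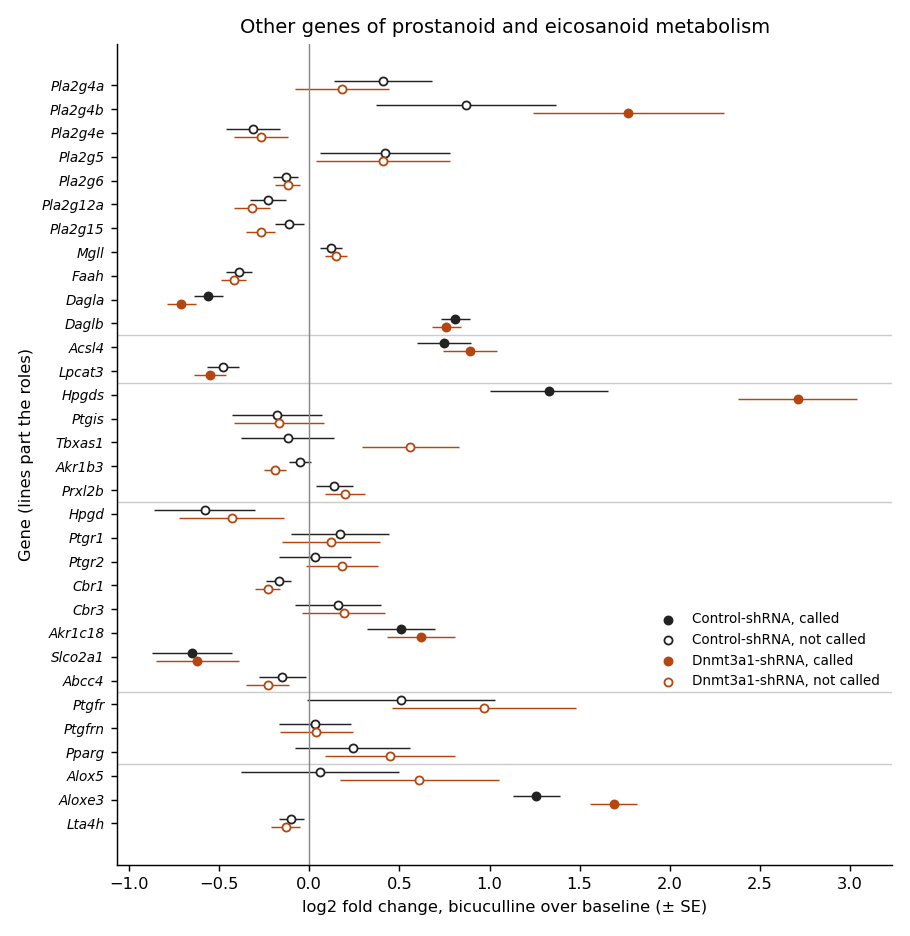
Log2 fold change of bicuculline over baseline with its SE for the 32 tested genes of the wider pathway, grouped by role, in Control-shRNA (black) and Dnmt3a1-shRNA cultures (orange). Filled points are called. Hpgds and Aloxe3 show the largest rises called in both, and Dagla and Slco2a1 the falls called in both.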

How the data were processed

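RNA from 16 cultures was sequenced on a BGISeq-500 and, per the labels and the study's methods, trimmed with Trim Galore 0.6.4 and quantified with kallisto (0.4.6 in the submitters' processing notes) on GRCm38.p6. The deposited files hold, per gene and library, the authors' estimated counts, which need not be whole, and their TPM. The annotation release and the strand setting were not given in the sources used here.

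Estimated counts were rounded and genes filtered with filterByExpr. One edgeR 4.0.16 quasi-likelihood model of the 4 groups with TMM scaling (R 4.3.3) gave each contrast, with Benjamini-Hochberg adjustment over all 17222 genes tested. Adjusted p-values without a tool's name are from this model. CPM are TMM-scaled. TPM served for levels across genes, for the marker lists, Dnmt3a and some single genes across groups, and in the log2(TPM) alternatives below. Alternatives were voom with limma 3.58.1, DESeq2 1.42.0, other scalings and filters, log2(TPM + 1) and log2(TPM + 0.1) with limma, the replicate block, only the 2 groups compared, other fold thresholds, and each library left out. The procedure was tested on simulated data.

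The 9 genes, the lists and the motifs were chosen with earlier results of these data known. Named pathway genes are the 6 called after bicuculline in either shRNA with the largest change in Control-shRNA, plus Dagla, Lpcat3, Akr1c18 and Hpgd, which were chosen after their values were seen; genes like Ptgs2 are the 5 with the highest Pearson's r. Same-numbered libraries deviated together in the bicuculline contrast of Control-shRNA (r of 0.142 to 0.2214 across genes) and the knockdown contrast at baseline (0.2036 to 0.3554). This is from the data alone, since the labels do not say what a number marks. The edgeR model of the 4 groups left the replicate number out, so its tests were unpaired. The number entered only in the replicate block alternative. In the other 2 contrasts 1 number fell below 0.1 (0.06309 and 0.06674). No replicate pair agreed within sampling noise (between pairs, chi-square over its degrees of freedom was 7.92 to 44.7). Promoters came from RefSeq tables, and 3′ UTRs from GENCODE transcripts.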

Additional observations from a re-analysis of the deposited data

Results flagged for a closer look

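Each of the 9 genes was examined in the 4 groups of 4 libraries for a library whose gap to its nearest neighbour exceeded the critical value of Dixon's test at 95%, which chance gives in about 1 group in 20. Of these 36 sets of values, 3 held such a library. Ptgds gave 22.4 CPM in Control-shRNA bicuculline replicate 3, where the other 3 libraries gave 1.10 to 1.19 CPM. Ptgs1 gave 0.974 CPM in Control-shRNA baseline replicate 3, above 0.454 to 0.527 CPM in the rest. Ptger4 gave 4.88 CPM in Control-shRNA bicuculline replicate 1, below 6.63 to 6.96 CPM in the rest, and still above all baseline libraries.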

How the results depend on the processing

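Counts of genes near 1 CPM, such as Ptgs1, Ptger1 and Ptger4 at baseline, rest on few reads, and p-values measure the spread between these preparations only. The calls of Ptgs2 in Control-shRNA and of Ptger4 in both kinds of culture after bicuculline held in all 26 alternatives. With the replicate block 5 members instead of 4 were called after bicuculline in Control-shRNA, Ptgs1 being added, and 3 instead of 2 with the knockdown under bicuculline, Ptgds being added (-1.69). No other member's call changed with the block.

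In Control-shRNA cultures 2 members were called after bicuculline with log2(TPM + 1) and 2 with DESeq2, which gave Ptgds no adjusted p. Leaving out single libraries gave 2 to 4 members there, 2 without Control-shRNA bicuculline replicate 3. In the knockdown with bicuculline single omissions gave 2 to 4, with 4 without Control-shRNA bicuculline replicate 1, where Ptgds and Ptger3 were added. With a fold threshold of 1 in log2, 1 member, Ptgs2, met the rule in each knockdown contrast. Of the 5 genes most like Ptgs2, 2 were shared by Spearman's rho and 1 by deviations from group means.

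Signs that turned were all of values that did not pass the test. In Control-shRNA after bicuculline Ptges2 was -0.05 with library sizes alone and -0.12 and -0.13 in TPM with pseudocounts of 1 and 0.1, and Ptges3 -0.06, -0.09 and -0.09. In Dnmt3a1-shRNA Ptgs1 was -0.29 and -0.63 and Ptger3 -0.03 and -0.03 in TPM, and Ptgds 0.01 with DESeq2 size factors and 0.00 with at least 10 counts in every library. The interaction of Ptges was 0.01 by voom. Leaving out single libraries gave -0.03 to 0.66 for Ptgs1, -0.05 to 0.00 for Ptges2 and -0.36 to 0.20 for Ptgds in Dnmt3a1-shRNA after bicuculline, and interactions of -0.27 to 0.11 for Ptges, -0.18 to 0.09 for Ptger3 and -0.28 to 0.03 for Ptger4. The cause of these changes was not tested. In the knockdown contrasts 30.2% and 33.9% of all called genes were higher with TMM, 14.2% and 19.2% with library sizes alone, and 9.11% and 14.5% with log2(TPM + 1).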
